A study of Homo sapiens with 4 samples.

Results

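The inflammatory chemokines studied here are 10 genes, matched by symbol: CXCL1, CXCL2, CXCL3, CXCL5, CXCL6, CXCL8, CCL2, CCL5, CCL20 and CX3CL1. All 10 were found among the 61228 gene symbols counted, and all 10 passed the filter on low counts. RNA-seq had been done on H1792, an established human lung cancer line whose genotype is labelled WT with no gene named. Cells were grown for 96 h with the solvent DMSO (2 libraries) or with ACBI1, at a labelled dose of 1 mM, a unit that could not be checked here and is high for a compound of this kind (2 libraries). ACBI1 is a degrader that ties SMARCA2, SMARCA4 and PBRM1, subunits of SWI/SNF chromatin remodelling complexes, to the VHL ubiquitin ligase. The series is about SMARCA4 mutation in lung cancer and immunity against the tumour, and the comparison asks which transcripts differed after the degrader. The labels do not say whether the 2 libraries of a group came from separate cultures, so p-values measure the spread between these libraries, which may be technical.

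Chemokines are small secreted proteins that set up gradients along which leukocytes migrate. CXCL1, CXCL2, CXCL3, CXCL5, CXCL6 and CXCL8 (interleukin-8) carry a Glu-Leu-Arg motif, bind CXCR1 or CXCR2 and attract neutrophils, and their genes lie together on chromosome 4. CCL2 attracts monocytes through CCR2, CCL5 attracts T cells and monocytes, and CCL20 attracts CCR6-bearing lymphocytes and dendritic cells. CX3CL1 (fractalkine) differs in being made as a membrane-anchored protein on a mucin-like stalk, from which ADAM10 and ADAM17 can release it, and it binds CX3CR1. Most of these genes are classical targets of NF-kB, which is activated by interleukin-1, TNF and microbial ligands.

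The upstream sequences of the genes were set side by side as a description, and their part in the changes reported below was not tested. RefSeq promoters (GRCh38.p14) were found for 7 of the 10 genes, all but CCL2, CCL5 and CX3CL1. A start in this paragraph is the RefSeq start, which can differ from the GENCODE gene start used further on. Of the windows of 100 bases printed here, only that of CXCL1 lies wholly outside its GENCODE gene. The others lie partly or wholly inside theirs, so a site before the RefSeq start can lie after the GENCODE start. The longest run of bases common to the 250 bases before the start of all 6 CXCL genes was GGAATTTCC, the core of a kappa B element, 77 to 91 bases before the start and on the gene's own strand in each. It was found by this search and not chosen beforehand, and it occurs on either strand in 162 of 35116 promoter windows of 300 bases (0.461%). The 100 bases before the start are given 5′ to 3′ on the strand of the gene, at chr4:73740469-73740568 (plus strand) for CXCL8, chr4:73836578-73836677 (plus) for CXCL6, chr4:73869293-73869392 (plus) for CXCL1, chr4:73998678-73998777 (minus) for CXCL5, chr4:74038690-74038789 (minus) for CXCL3, chr4:74099196-74099295 (minus) for CXCL2 and chr2:227813742-227813841 (plus) for CCL20. Capitals mark the shared run and any match, on either strand, to the full kappa B consensus.
CXCL8: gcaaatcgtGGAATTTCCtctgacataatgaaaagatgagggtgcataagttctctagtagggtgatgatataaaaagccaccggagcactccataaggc
CXCL6: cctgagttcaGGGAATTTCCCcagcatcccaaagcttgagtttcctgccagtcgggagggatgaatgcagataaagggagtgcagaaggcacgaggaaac
CXCL1: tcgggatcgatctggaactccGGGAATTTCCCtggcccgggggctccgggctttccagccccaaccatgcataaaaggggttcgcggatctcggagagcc
CXCL5: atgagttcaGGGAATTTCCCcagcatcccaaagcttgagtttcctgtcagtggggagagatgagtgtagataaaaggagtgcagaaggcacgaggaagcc
CXCL3: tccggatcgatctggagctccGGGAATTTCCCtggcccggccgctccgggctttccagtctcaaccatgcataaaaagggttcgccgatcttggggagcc
CXCL2: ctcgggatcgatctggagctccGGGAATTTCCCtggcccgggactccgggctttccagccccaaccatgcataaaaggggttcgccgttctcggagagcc
CCL20: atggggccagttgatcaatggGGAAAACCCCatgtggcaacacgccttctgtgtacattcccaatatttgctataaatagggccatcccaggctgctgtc
The full kappa B consensus was matched in 6 of these 7 promoters, with 2 overlapping matches on opposite strands in CXCL1, CXCL2, CXCL3, CXCL5 and CXCL6 and 1 match on the minus strand in CCL20. CXCL8 was the exception and carries only the shared run. The consensus was present in 11.3% of all 35116 windows. The AP-1 motif TGANTCA, searched on both strands as were the others, was found only in CXCL8 among the 7 (137 bases before the start, and in 7.71% of all windows). TATAAA was found in CXCL8 and CCL20 (11.5% of all windows), and the interferon response motif in none of the 7 (3.57%). Over their 250 upstream bases, CXCL5 and CXCL6 were 85.3% identical, CXCL1 and CXCL3 81.4%, and CXCL2 and CXCL3 73.3%, while CXCL8 was 40.49% to 45.04% identical to the other CXCL genes. That is no more than for CCL20, outside the cluster, which was 42.11% to 48.19% identical to the CXCL genes, the highest value being that with CXCL8. A match describes letters in these windows and not binding.

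Reads counted in genes ranged from 64281850 to 86010100 per library. The quasi-likelihood test of edgeR was run on 19159 genes, of which 2037 (10.6%) were called lower and 1294 (6.75%) higher with ACBI1 at a Benjamini-Hochberg adjusted p under 0.05, and the median log2 change over all tested genes was 0.008. As to the label of the line, KRT8 and KRT18 transcripts were present (139.9 to 191.8 CPM with DMSO and 58.7 to 75.1 with ACBI1, both called lower; CPM are counts per 1000000 gene counts after TMM scaling), KRT19 was at 3.44 and 5.00 CPM against 0.961 and 0.503 (called lower), EPCAM at 5.38 and 2.78 against 15.56 and 4.83 (log2 change 1.32, not called), NAPSA, SFTPB and CDH1 were at or below 0.236 CPM in every library, and NKX2-1 had 0 counts in all 4. The 7 leukocyte markers summed to 0.344 and 0.778 CPM with DMSO and to 0.168 and 0.381 with ACBI1, with CD3E and FCGR3B at 0. The 3 endothelial markers summed to 12.6 and 48.5 CPM against 0.0112 and 0.0458, nearly all of it PECAM1, with CDH5 and VWF at 0 counts in both ACBI1 libraries. The 3 fibroblast markers PDGFRB, DCN and LUM summed to 21.1 and 59.0 CPM against 8.77 and 11.8, none of them at 0; most of the sum was PDGFRB, which was not called, while DCN (3.68 and 7.55 CPM against 0.0447 and 0.107; log2 change -6.24) and LUM (-3.19) were called lower. The part of these markers in the chemokine results was not tested. In bulk RNA, fewer cells making a transcript and less of it in each cell cannot be told apart.

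All 10 chemokine transcripts were lower with ACBI1 in both libraries than in either DMSO library, a separation in that direction shown by 32.2% of tested genes. Of the 10, edgeR called 8 lower, all but CCL2 and CCL5, and 0 higher, against the 10.6% and 6.75% of all tested genes given above. At an unadjusted p under 0.05 all 10 were lower and 0 higher, and 0 were called higher by DESeq2 or limma-voom. That unadjusted threshold was passed by 6490 of the 19159 tested genes, counting both directions together. The median log2 change of the 10 was -4.11, and that of the 6 CXCL genes was also -4.11. The 10 genes together made up 0.608% and 0.373% of the gene counts of the DMSO pair, against 0.0287% and 0.0255% for the ACBI1 pair. Their summed level fell from 5074 ± 1809 to 262.6 ± 18.4 CPM (SD, n = 2). Leaving out any 1 library, with the lone library of its group assumed to vary like the other group, gave 9 of 10 called lower each time, the ninth being CCL2 or CCL5.

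**Figure D1:**
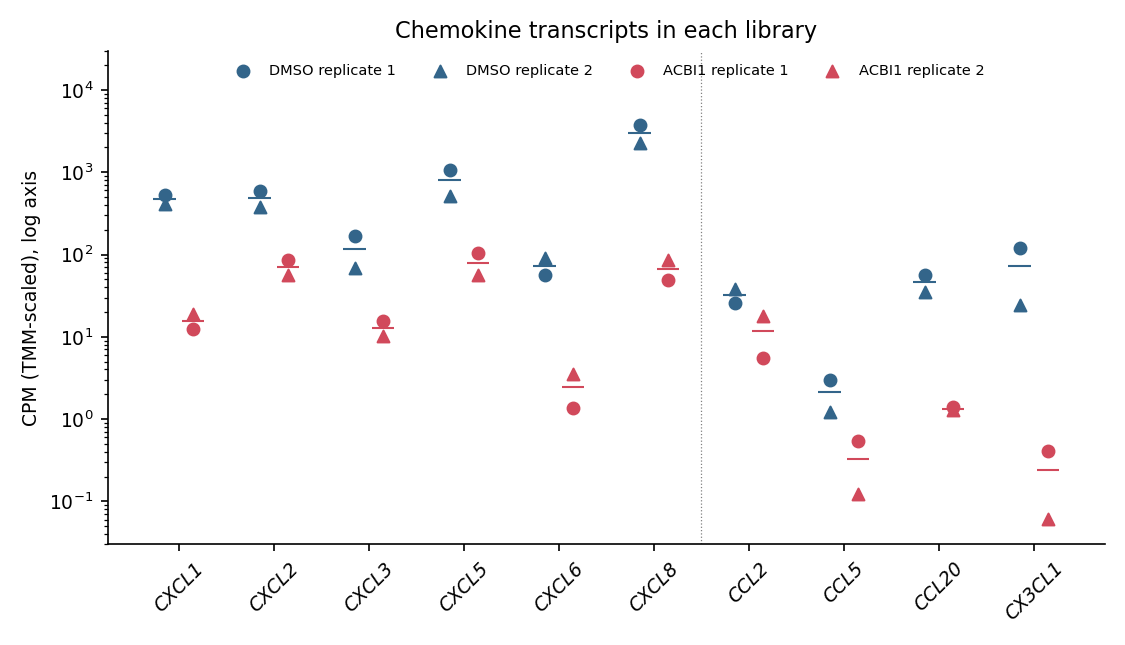
CPM after TMM scaling (log axis) of each chemokine transcript in each of the 4 libraries; circles are replicate 1, triangles replicate 2, short bars the group means, and the dotted line divides the CXCL genes from the others. Both ACBI1 points lie below both DMSO points for all 10 genes, with the narrowest gap at CCL2 (25.7 against 17.9 CPM).

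CXCL8 was the most abundant of them in DMSO. It measured 3722 and 2237 CPM with DMSO, against 49.0 and 85.1 CPM with ACBI1. Its lower DMSO value was 26.3 times its higher ACBI1 value, so the groups were far apart although the DMSO libraries differed between themselves by 1.66-fold. CXCL8 fell by 5.47 on the log2 scale (SE 0.43, adjusted p 0.00231), which is 44.5-fold (95% interval 21.7 to 91.3). The change rested on 464070 DMSO and 9964 ACBI1 counts.

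CXCL1, CXCL2 and CXCL3, the close paralogs once named GRO alpha, beta and gamma, did not fall to the same extent. CXCL1 was at 526 and 409 CPM with DMSO and at 12.4 and 18.9 CPM with ACBI1. CXCL2 had a like DMSO level, 598 and 376 CPM, and was at 85.9 and 56.9 CPM with ACBI1. CXCL3 was at 166 and 69.3 CPM against 15.5 and 10.3 CPM. None of the 3 overlapped between groups, and the ACBI1 values of CXCL2 were the highest of the 3. The log2 changes were -4.90 (SE 0.30, adjusted p 0.00141) for CXCL1, -2.77 (SE 0.32, adjusted p 0.00571) for CXCL2 and -3.19 (SE 0.46, adjusted p 0.00971) for CXCL3. The 95% intervals of CXCL1 (-5.63 to -4.18) and CXCL2 (-3.55 to -1.99) did not meet. Without DMSO replicate 1 the log2 change of CXCL3 was -2.42. These paralogs share sequence: 4.81%, 12.5% and 6.01% of the 50-base stretches in the transcripts of CXCL1, CXCL2 and CXCL3 also occur in transcripts of the other 2, so some of their reads can be lost or misassigned.

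CXCL5 and CXCL6, whose promoters are near copies, also differed in size of change. CXCL5 was at 1078 and 514 CPM with DMSO and at 104 and 55.7 CPM with ACBI1. CXCL6 was at 56.1 and 90.7 CPM against 1.37 and 3.48 CPM. Of the merged exon bases of CXCL6, 4.31% overlap the pseudogene PPBPP1. Neither gene overlapped between groups, and DMSO replicate 1 was the higher DMSO library for CXCL5 and the lower for CXCL6. CXCL5 had a log2 change of -3.32 (SE 0.47, adjusted p 0.00922), or -2.69 without DMSO replicate 1. CXCL6 had a log2 change of -4.93 (SE 0.51, adjusted p 0.00434), or -5.75 without ACBI1 replicate 2. Their 95% intervals overlapped (-4.45 to -2.19 and -6.17 to -3.69), and the difference between them was not tested.

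The 4 genes outside the CXCL cluster held both the smallest and the largest change. CCL20 was at 56.3 and 35.0 CPM with DMSO and at 1.38 and 1.30 CPM with ACBI1. Its ACBI1 libraries nearly coincided, and its log2 change of -5.09 (SE 0.31, adjusted p 0.00141) was close in size to those of CXCL1 and CXCL8. CX3CL1 was at 122 and 24.3 CPM with DMSO and at 0.413 and 0.0610 CPM with ACBI1. Its libraries thus spread 5.01-fold within DMSO and 6.78-fold within ACBI1, but the lower DMSO value was still 58.7 times the higher ACBI1 value. The ACBI1 values rested on 37 and 4 counts. CX3CL1 had a log2 change of -8.16 (SE 1.10, adjusted p 0.00837), a fall of 285-fold with a 95% interval from 44.5 to 1829. Each single library moved this value by more than 1.5-fold: it was -6.58 without DMSO replicate 1, -8.89 without DMSO replicate 2, -10.18 without ACBI1 replicate 1 and -7.47 without ACBI1 replicate 2.

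CCL2 and CCL5 did not pass the threshold. CCL2 was at 25.7 and 38.0 CPM with DMSO and at 5.56 and 17.9 CPM with ACBI1. The groups did not overlap, but the ACBI1 libraries differed by over 3-fold and the nearest values of the groups by 1.44-fold. The log2 change of CCL2 was -1.44 (95% interval -2.73 to -0.16, adjusted p 0.115). It was called without DMSO replicate 1 (-1.70, adjusted p 0.0143) and without ACBI1 replicate 2 (-2.53, adjusted p 0.0086), and was -0.82 without ACBI1 replicate 1. CCL5 was rare throughout, at 2.98 and 1.22 CPM with DMSO and 0.536 and 0.122 CPM with ACBI1 (331 against 56 counts). Its log2 change was -2.64 (95% interval -4.49 to -0.79, adjusted p 0.0627), and it was called without DMSO replicate 2 (-3.14, adjusted p 0.0057) and without ACBI1 replicate 1 (-4.08, adjusted p 0.0312). It was smaller and not called without DMSO replicate 1 (-1.85, adjusted p 0.08) and without ACBI1 replicate 2 (-1.98, adjusted p 0.12). Of the other ways of testing all 4 libraries without a block, DESeq2 (adjusted p 0.0166 for CCL2 and 0.00167 for CCL5) and edgeR with no filter called both genes, and the rest called neither. Over these alternatives the adjusted p ranged from 6.54e-08 to 0.119 for CCL2 and from 2.32e-07 to 0.0652 for CCL5. Both lower ends came from edgeR with no filter, which gave an adjusted p of 5.45e-105 for CXCL8 against 0.00231 in the main fit. With 2 libraries per group, p-values of that size are not taken as evidence here. Of the 50-base stretches in CCL5 transcripts, 15.2% also occur in transcripts of other genes.

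**Figure D2:**
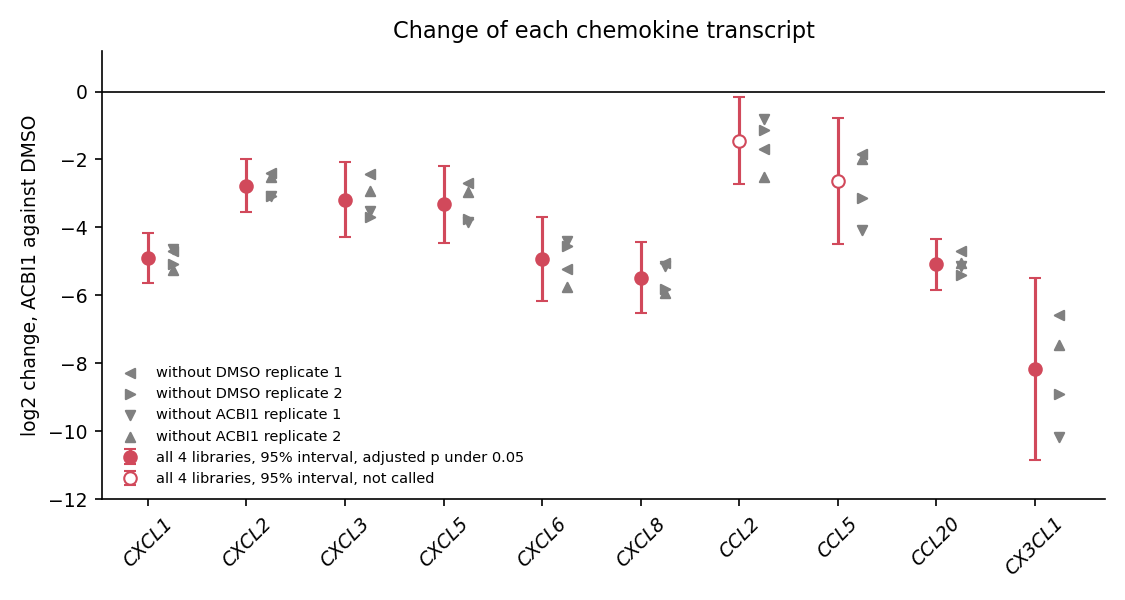
Log2 change of each chemokine transcript, ACBI1 against DMSO, with 95% intervals from edgeR on all 4 libraries (filled, adjusted p under 0.05; open, not called) and, in grey, the value with each library left out. Every value is below 0; CX3CL1 lies lowest at -8.16 and CCL2 highest at -1.44.

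To compare levels between genes, CPM were divided by the length of the principal transcript in kb. In DMSO the order of the means was CXCL8 (1748 ± 616 CPM per kb), CXCL1 (426 ± 75.1), CXCL2 (400 ± 129), CXCL5 (314 ± 157), CXCL3 (109.6 ± 63.9), CCL20 (57.1 ± 18.8), CCL2 (43.0 ± 11.7), CXCL6 (42.7 ± 14.3), CX3CL1 (22.0 ± 20.7) and CCL5 (1.54 ± 0.912; SD, n = 2 throughout). Within each DMSO library CXCL8 came first, then CXCL1 and CXCL2 in either order, then CXCL5, CXCL3 and, last of all, CCL5. The order of CCL20, CCL2, CXCL6 and CX3CL1, which lay between CXCL3 and CCL5, differed between the libraries. Over the group, the values of CXCL1, CXCL2 and CXCL5 overlapped. In ACBI1 the order began with CXCL2 (58.6 ± 16.9 CPM per kb), CXCL8 (39.3 ± 14.9) and CXCL5 (31.4 ± 13.3). Then came CCL2 (15.9 ± 11.8), CXCL1 (14.3 ± 4.16) and CXCL3 (12.02 ± 3.45). CCL20 (1.68 ± 0.0784), CXCL6 (1.41 ± 0.866), CCL5 (0.241 ± 0.215) and CX3CL1 (0.0714 ± 0.0750) came last. Within each ACBI1 library CXCL2 was above CXCL5, CXCL5 was above CXCL1 and CXCL3, and the last 4 were CCL20 and CXCL6 in either order, then CCL5 and CX3CL1. The places of CXCL8 and CCL2 differed between the libraries.

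The make-up of the chemokine transcripts therefore differed between the groups. CXCL8 was 55.9% and 54.3% of the summed CPM per kb of the 10 genes in DMSO, and 16.3% and 28.8% in ACBI1. CXCL2 went the other way, from 12.5% and 12.8% to 40.0% and 26.9%. CCL2 was 0.889% and 2.12% in DMSO and 4.26% and 14.0% in ACBI1, while CX3CL1 was 0.937% and 0.302% against 0.0706% and 0.0106%. For each of these 4 genes the ACBI1 shares lay outside the DMSO shares. The same held for CXCL1, CXCL3, CXCL5 and CCL20, while the shares of CXCL6 and CCL5 overlapped between groups.

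**Figure D3:**
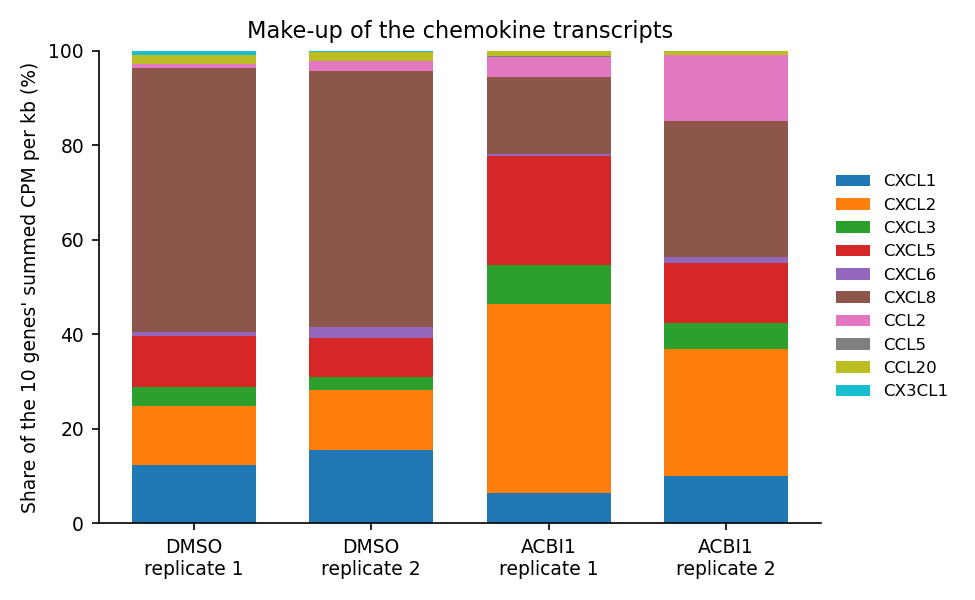
Share of each gene in the summed CPM per kb of the 10 chemokine genes, in percent, for each of the 4 libraries (1 bar per library). The CXCL8 part is 55.9% and 54.3% of the DMSO bars and 16.3% and 28.8% of the ACBI1 bars, where CXCL2 and CXCL5 take larger parts.

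The CXCL genes were then set against each of the other 4 within every library, so that sequencing depth and scaling drop out. The log2 ratio of the summed CXCL counts to CCL2 was 7.90 and 6.60 in DMSO and 5.59 and 3.68 in ACBI1, a mean shift of -2.62. Against CCL5 it was 11.01 and 11.56 in DMSO and 8.96 and 10.88 in ACBI1, a shift of -1.36. Both shifts mean that the CXCL sum lost more than CCL2 or CCL5 did. Against CCL20 the log2 ratio was 6.77 and 6.72 in DMSO and 7.59 and 7.47 in ACBI1, a shift of 0.79. Against CX3CL1 it was 5.66 and 7.25 in DMSO and 9.34 and 11.88 in ACBI1, a shift of 4.16. Here the CXCL sum lost less than its partner, by far for CX3CL1. None of the 4 ratios overlapped between groups, and they are described without a test. With 2 libraries per group such a separation says little, as the smallest exact permutation p possible is 0.333. The gap for CCL5 was narrow (11.01 against 10.88), and its nearest ACBI1 value rested on 8 CCL5 counts. The sum leans on CXCL8, which averaged 2980 of its 4922 CPM in DMSO. The smallest change among the 6 CXCL genes, that of CXCL2 (-2.77), was close to that of CCL5 (-2.64).

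The CXCL genes were next placed along their cluster. In GENCODE release 29 (GRCh38, the build that the submitters' processing notes name as hg38), CXCL8 (chr4:73740506-73743716), CXCL6 (chr4:73836497-73849064) and CXCL1 (chr4:73869393-73871242) come first and lie on the plus strand. CXCL5 (chr4:73995642-73998779), CXCL3 (chr4:74036589-74038807) and CXCL2 (chr4:74097035-74099293) follow on the minus strand. The first 3 had log2 changes of -5.47, -4.93 and -4.90, and the other 3 of -3.32, -3.19 and -2.77, so that with all 4 libraries the fall was smaller at each step along the cluster. With 1 library left out this order broke in 3 of 4 fits (CXCL6 was -5.24 and CXCL8 -5.06 without DMSO replicate 1, CXCL6 -4.55 and CXCL1 -5.08 without DMSO replicate 2, and CXCL6 -4.39 and CXCL1 -4.62 without ACBI1 replicate 1). The 3 plus-strand genes kept the larger falls in 4 of 4. The intervals of neighbouring genes overlapped throughout, and no test was made of this order, which was noticed in these data. Of the chemokine ligands in the same cluster that are not among the 10, PF4V1 (0.368 and 0.542 CPM against 0.391 and 0.229) had a log2 change of -0.54 (adjusted p 0.49), PF4 had 0 counts and PPBP 1 count.

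Genes beside the cluster that are not chemokines did not show changes of that size. Of 9 such protein-coding genes with a start within 500 kb of a CXCL member, 6 could be tested and 1 was called. RASSF6, a RAS-association domain gene on the CXCL8 side of the cluster (start at -119.9 kb from that of CXCL8), was lower at 14.1 and 25.6 CPM with DMSO and 6.58 and 9.30 with ACBI1 (log2 change -1.32, adjusted p 0.0485), a call that was kept in 1 of the 4 fits with 1 library left out, that without DMSO replicate 1, and lost in the others (adjusted p up to 0.178), as well as with upper-quartile factors, with library size only and by limma-voom. MTHFD2L, a mitochondrial folate enzyme gene that starts 14.9 kb beyond CXCL2, had a log2 change of -0.36 (adjusted p 0.372). The EGF-family ligand genes EREG (-0.54, adjusted p 0.369) and AREG (-0.91, adjusted p 0.16) were not called either.

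**Figure D4:**
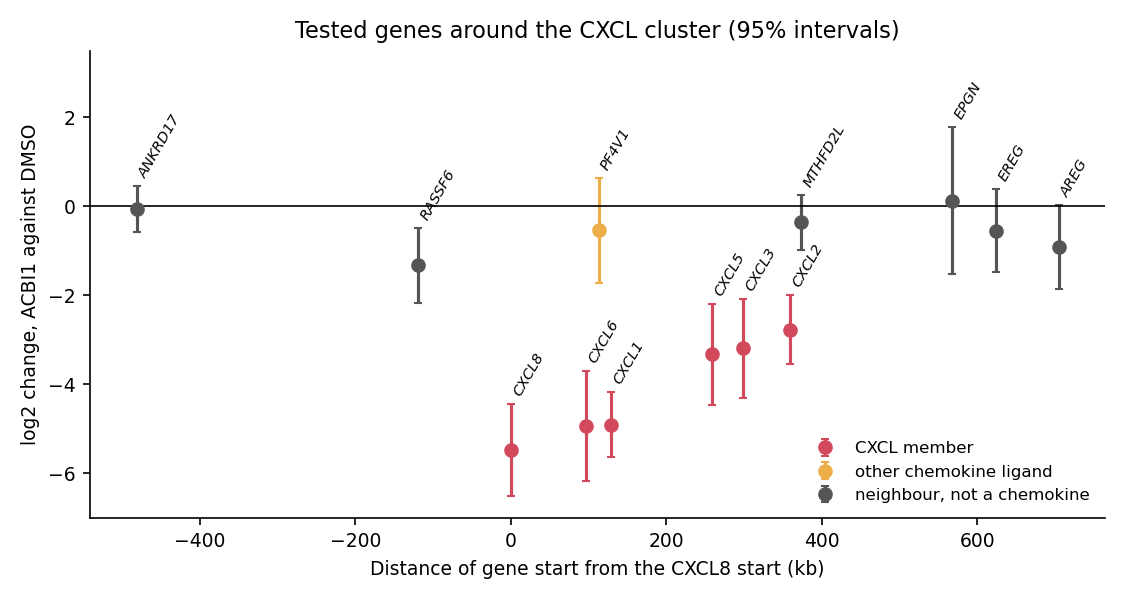
Log2 change, ACBI1 against DMSO, with 95% intervals, of the tested genes around the CXCL cluster, by distance of their start from the start of CXCL8 in kb. The 6 CXCL genes (red) lie between -5.47 and -2.77, PF4V1 (yellow) at -0.54, and the 6 neighbours that are not chemokines (grey) between -1.32 and 0.13.

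The rest of the chemokine ligand family was mostly silent in these cells. Of the other 38 ligands listed, 36 were in the files, 17 of them had 0 counts in all 4 libraries, and 5 could be tested. edgeR called 0 of the 5 (1, higher, had an unadjusted p under 0.05), limma-voom called 0 and DESeq2, which tested 7, called 1 lower. Without DMSO replicate 1, rare genes could pass the filter through the lone DMSO library, which sets their direction, so that count is not given. The median log2 change of the 5 was -0.14, with 3 of 5 negative. CXCL16, which like CX3CL1 is made as a membrane-anchored protein, was at 14.1 and 14.8 CPM with DMSO and 16.3 and 19.0 with ACBI1 (log2 change 0.29, adjusted p 0.346). CCL28, a mucosal epithelial chemokine, was at 9.95 and 8.90 CPM against 20.2 and 11.7 (log2 change 0.76, adjusted p 0.137). XCL1 and XCL2 had log2 changes of -0.40 and -0.14. Next to CCL2, the eotaxin gene CCL11 had 35 counts in DMSO, nearly all in replicate 2, and 0 in ACBI1, at least 11.8-fold lower when 3 counts over the ACBI1 group are taken as the floor. CCL7 had 19 counts against 0, at least 6.40-fold lower. These 2 genes were too rare to test with all 4 libraries and were picked after their counts were seen.

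The receptors for the chemokines given here were at most rare. CXCR1 had 2 counts in all, CXCR2 2, CCR2 3 and CCR6 0, and CCR1 and CCR3, which bind CCL5, had 2 and 0. CX3CR1 was at 0.111 and 0.153 CPM with DMSO and 0.290 and 0.305 with ACBI1 (log2 change 1.17, adjusted p 0.152). Of 23 receptor genes, 7 were tested, with a median log2 change of -0.46. edgeR called 2 lower and 0 higher, against 10.6% and 6.75% of all tested genes. DESeq2 and limma-voom also called 0 higher, and 1 was higher at an unadjusted p under 0.05. The 2 called lower, CXCR4 and CCRL2, passed the count filter only through their DMSO libraries. A rare gene of this kind could only be called lower, so these calls say little about the receptors as a family. CXCR4, the receptor for CXCL12, had 122 DMSO counts and 1 ACBI1 count, 123 times as many per scaled read (exact 95% counting limits 21.7 and 4912; adjusted p 0.0372). Most of the DMSO counts of CXCR4 came from replicate 2 (1.501 CPM, against 0.172 in replicate 1), and its call was kept only without DMSO replicate 1 when single libraries were left out (adjusted p up to 0.113). CCRL2, a non-signalling receptor that holds chemerin at the cell surface, was at 0.516 and 0.473 CPM against 0.0112 and 0.0458 (log2 change -4.15, adjusted p 0.0140). The change of CCRL2 was -3.38 without ACBI1 replicate 1 (adjusted p 0.0684, not called) and -5.29 without ACBI1 replicate 2.

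The cytokines that induce these chemokines and their receptors were looked at next, in a list that also held the microbial-ligand receptor genes TLR2, TLR3 and TLR4. Of 25 listed genes, 21 were tested, 14 were called lower and 1 higher, and the median log2 change was -1.21. Those called lower included TLR2 (log2 change -2.11), TLR3 (-2.62) and TLR4 (-3.53). They also included the rare genes IL36G and LTA, which passed the count filter only through their DMSO libraries. Without ACBI1 replicate 1 the count called lower was 8. IL1A and IL1B, which encode both forms of interleukin-1, measured 339 and 199 CPM, and 651 and 321 CPM, in DMSO replicates 1 and 2. Like 8 of the 10 chemokines, both were higher in DMSO replicate 1, and their ACBI1 values were 1.53 and 0.976 CPM for IL1A and 0.0559 and 0.0153 CPM for IL1B. The log2 changes were -7.73 for IL1A (adjusted p 0.00141) and -13.57 for IL1B (adjusted p 0.00126), the latter resting on 6 ACBI1 counts. For IL1B the change was -12.96 without DMSO replicate 1 and -14.8 without ACBI1 replicate 1. TNF was at 3.77 and 3.32 CPM against 0.212 and 0.244 (log2 change -3.95, adjusted p 0.00361). LTB, a lymphotoxin subunit, fell by 5.83 on the log2 scale (adjusted p 0.00193). IL36G, an epithelial interleukin-1 family member, had 38 counts against 2, or 19.2 times as many per scaled read (exact 95% counting limits 4.97 and 164; adjusted p 0.0310), and was not called without ACBI1 replicate 1 or without ACBI1 replicate 2 (adjusted p up to 0.162). The gene called higher was IL17RE, the receptor chain for IL-17C (1.04 and 1.501 CPM against 5.26 and 4.91; adjusted p 0.0145), and among those called lower were the receptor genes IL1R1 (log2 change -2.14, adjusted p 0.0137; -1.52 without DMSO replicate 2) and TNFRSF1A (-1.11, adjusted p 0.0114; 0.0639 without ACBI1 replicate 1). These 3 receptor genes, and the TLR genes and LTA above, were named after their values were seen.

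Transcripts of the NF-kB machinery moved in both directions. Of 19 listed genes, all tested, 5 were called lower and 2 higher, and the median log2 change was -0.25. With 1 library left out, the count called lower ran from 3 (without either ACBI1 replicate) to 7 (without DMSO replicate 1). RELA, the main activating subunit, was at 124.6 and 113.2 CPM with DMSO and 186 and 149.7 with ACBI1 (log2 change 0.50, adjusted p 0.111), and NFKB1 was at 203.7 and 142.1 CPM against 139.7 and 106.8 (log2 change -0.49, adjusted p 0.208), so neither subunit was called. Those lower included TNFAIP3, a feedback inhibitor that NF-kB induces (A20; 150.5 and 208.9 CPM against 24.6 and 23.6; log2 change -2.90, adjusted p 0.00231), its partner TNIP1 (-1.24, adjusted p 0.00846), the nuclear cofactor NFKBIZ (-2.19, adjusted p 0.00385), and NFKBIA and BCL3, each with a smaller change. The call of NFKBIA was lost without either ACBI1 replicate (adjusted p up to 0.119), and that of BCL3 in each fit with 1 library left out but that without DMSO replicate 1 (up to 0.192). MAP3K14, the kinase NIK of the non-canonical pathway, rose from 29.6 and 28.7 CPM to 123.6 and 164.9 CPM (log2 change 2.31, adjusted p 0.00265), and the inhibitor gene NFKBIB had a log2 change of 0.66 (adjusted p 0.0330), a call lost with any 1 library left out. NFKBIA, BCL3 and NFKBIB were named after their values were seen.

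Of 16 other transcription factor genes known to act at chemokine promoters, all tested, 6 were called lower and 0 higher (0 higher also by DESeq2, limma-voom and at an unadjusted p under 0.05), with a median log2 change of -0.64. Without ACBI1 replicate 1, only 1 of the 16 was called, IRF1. The largest called changes were those of IRF1, an interferon-response factor (172 and 123.7 CPM against 34.1 and 28.7; log2 change -2.24, adjusted p 0.00396), and CEBPD (-1.78, adjusted p 0.0239). The AP-1 genes JUN (-1.70, adjusted p 0.0473) and FOSL2 (-1.56, adjusted p 0.0153) were also lower. Without ACBI1 replicate 1 the adjusted p reached 0.055 for CEBPD, 0.131 for JUN and 0.0594 for FOSL2, and the change of JUN was -2.32 without ACBI1 replicate 2. The counts describe each list without testing it as a set.

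Last, genes were ranked by how closely their values over the 4 libraries followed the mean profile of the 6 CXCL genes, on the log2(CPM + 0.5) scale relative to the DMSO mean. That profile was 0.28 and -0.28 in DMSO and -4.06 and -3.99 in ACBI1. Of 11149 candidates with a mean of at least 5 CPM that are not chemokine ligands, the nearest was ICAM1, the leukocyte adhesion molecule, at a root-mean-square distance of 0.041. It was at 215.8 and 156.3 CPM with DMSO and 10.3 and 10.9 with ACBI1. The next were ENSG00000289423 (distance 0.100), ISLR2 (0.129), ACSL5, a fatty-acid CoA ligase gene (0.153), and TNFRSF14, the receptor HVEM (0.162). Among the 10 chemokines themselves, CCL20 (0.42) was nearer to the CXCL mean than any CXCL gene was (0.63 to 1.06), while CX3CL1 (1.72), CCL5 (1.74) and CCL2 (1.85) were farthest. With ACBI1, ENSG00000289423 (0.357 and 0.244 CPM) and ISLR2 (0.223 and 0.107 CPM) lay below the added 0.5, which shrinks their change on this scale: their fitted log2 changes were -5.41 and -5.96. CX3CL1 (0.413 and 0.0610 CPM with ACBI1, fitted log2 change -8.16) is shrunk in the same way. So in part is CCL5 (0.536 and 0.122 CPM, fitted log2 change -2.64). The distances of CX3CL1 and CCL5, and their order beside CCL2, therefore depend on the added 0.5. This likeness is a description over 4 libraries and uses the same contrast.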

How the data were processed

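Raw counts per gene symbol were used as deposited by the authors, in 1 file per library. TopHat2 2.1.1, HTSeq 0.11.0 and hg38 are named per the submitters' processing notes; annotation and strand setting are not given in the sources used here. Library preparation used a kit sold for DNA, per the labels' protocols. Reads in the 5 further lines (no gene, several genes, not unique and the like, 13.9% to 15.4% of all) were left out. Genes passing filterByExpr (minimum count 10, minimum total 15) were scaled by TMM (factors 0.958 to 1.04) and tested across all genes with edgeR 4.0.16 in R 4.3.3 (glmQLFTest, two-sided, treatment only), with Benjamini-Hochberg adjustment over 19159 genes and calls under 0.05. The SE is the log2 change over the root of F, and 95% intervals follow from it. Counting intervals and floors (3 counts) cover counting error only. DESeq2 1.42.0 and limma 3.58.1 (voom) were alternatives. Replicates exceeded sampling noise (chi-square per degree of freedom 144 and 94.9). List counts and the order along the cluster under the alternatives were added after the data were seen. As a check of the code, the fit was run on simulated counts with the same dispersion for every gene and independent libraries. Such a run cannot show how the fit handles the spread of these libraries. The members, lists and naming rule (all members, up to 4 called genes of a list by size of change, receptors of the members, IL1A, IL1B, TNF, RELA, NFKB1 and the 5 most alike genes) were chosen with earlier results of these data known. Positions and lengths are from GENCODE release 29, matched by symbol, and promoters from RefSeq. The value of 1 listed receptor gene is not reported here.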

Additional observations from a re-analysis of the deposited data

How the results depend on the processing

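Apart from the stricter threshold, which leaves log2 changes as they are, all 119 alternative values of the members' log2 changes were negative. Of these, 109 stayed on the same side of the threshold, and the other 10 were CCL2 or CCL5 newly called. The members called lower numbered 8 to 10 under every alternative run, with 0 called higher. The number of genes called overall was 3331. It was 5518 with no filter on low counts and 783 at a threshold of 0.01, and ranged from 1379 to 4292 with 1 library left out. The cause was not tested. CCL5 was not tested under a mean of at least 5 CPM, a filter it did not pass. With the replicate number as a block, 7909 genes and all 10 members were called, CCL2 with a log2 change of -1.64 (edgeR adjusted p 0.000158) and CCL5 with -2.77 (adjusted p 0.000157). Same-numbered libraries share nothing but a number in the labels. Over genes, the difference between replicates 1 and 2 in DMSO correlated with that in ACBI1 (r = 0.518), and 8 of the 10 members were higher in the same numbered replicate in both groups (67.8% of tested genes). Depth limits CX3CL1 and CCL5, with 41 and 56 ACBI1 counts in all.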

Other observations

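Genes for the processing of chemokines included several that were lower with ACBI1. Of 13 listed, 9 were tested, 4 were called lower and 1 higher, with a median log2 change of -2.14. DESeq2, which tested 11 of the 13, called 8 lower and 1 higher, and over all genes it called 2603 lower and 1855 higher. MMP14, a membrane-anchored protease, was at 1741 and 884 CPM with DMSO and 225 and 199 CPM with ACBI1 (log2 change -2.63, edgeR adjusted p 0.00788), and MMP2, which MMP14 activates, was at 901 and 1250 CPM against 166 and 246.6 CPM (log2 change -2.38, adjusted p 0.00607). The heparan sulfate proteoglycan genes, whose products hold chemokines at the cell surface, went opposite ways: SDC4 fell by 2.60 on the log2 scale (adjusted p 0.00193) and SDC1, named after its value was seen, rose by 0.84 (adjusted p 0.0264; 0.133 without ACBI1 replicate 2). MMP1, an interstitial collagenase, fell by 2.39 (adjusted p 0.0428) but was not called without DMSO replicate 2 or without ACBI1 replicate 2 (adjusted p up to 0.114), and its change was -3.24 without ACBI1 replicate 1. The CX3CL1 sheddase genes ADAM10 (-0.63, adjusted p 0.0708) and ADAM17 (-0.67, adjusted p 0.0568) were not called. Of 9 genes listed for the decay or stabilisation of messages, 1 was called lower and 0 higher. DESeq2 and limma-voom also called 0 higher, 2 were higher at an unadjusted p under 0.05, and 5 were called lower with no filter. The gene called lower was ZC3H12A (Regnase-1), an endonuclease gene, at 175 and 258 CPM with DMSO against 18.5 and 31.1 CPM with ACBI1 (log2 change -3.13, edgeR adjusted p 0.00459). ZFP36, ZFP36L1, ZFP36L2, HNRNPD, KHSRP, ELAVL1, MAPKAPK2 and TRAF3IP2 were not called.

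At the other chemokine loci, genes within 500 kb that are not chemokines were called by edgeR in 0 of 4 tested around CCL20 on chromosome 2 (0 at an unadjusted p under 0.05, and 0 by DESeq2 and limma-voom). Around CCL2 and CCL5 on chromosome 17, 1 of 8 was called, SLFN13, which was higher (adjusted p 0.0355), with the call kept only without DMSO replicate 2 among the fits with 1 library left out. Around CX3CL1 on chromosome 16, 4 of 15 were called lower and 1 higher, against 2 and 0 without ACBI1 replicate 1. Around CX3CL1, ADGRG1, an adhesion receptor gene 238 kb away, averaged 3.32 ± 0.254 CPM in DMSO against 0.256 ± 0.0810 CPM in ACBI1 (SD, n = 2; log2 change -3.68, adjusted p 0.00514). HERPUD1, an endoplasmic reticulum stress gene, fell by 1.65 on the log2 scale (adjusted p 0.00412). CETP, a lipid transfer protein gene with 52 counts against 6, fell by 3.04 (adjusted p 0.0488) but was not called without DMSO replicate 2 or without ACBI1 replicate 1 (adjusted p up to 0.214), and its change ranged from -4.76 to -2.13 with 1 library left out. PLLP, which lies closer to CX3CL1, rose by 2.11 on the log2 scale (adjusted p 0.0176; 0.0552 without ACBI1 replicate 1).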
